A study of Mus musculus with 8 samples.

Results

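Transcripts of 10 genes of the bone morphogenetic protein (BMP) pathway were followed in mouse embryonic stem cells (ES cells) and in embryoid bodies, clumps whose cells leave the stem cell state. The genes were chosen by symbol from the 36255 rows of the deposited count table. They are the ligand genes Bmp2, Bmp4 and Bmp7, the inhibitory SMAD genes Smad6 and Smad7, and the immediate target genes Id1, Id2, Id3, Id4 and Msx2. Poly(A) RNA was sequenced from 8 libraries in 4 groups of 2. Per the sample titles, the groups are ES cells labelled Skp1a fl/fl (floxed alleles), ES cells labelled Skp1a KO, day 2 embryoid bodies (EBd2) of fl/fl cells, and EBd2 labelled KO. Skp1a encodes the adaptor that joins CUL1 to F-box proteins in SCF ubiquitin ligases. Cells were kept in standard medium for ES cells or embryoid bodies. The Cre or clone behind the KO label, the strain and what the numbered lots (1, 2 and 12) stand for were not given in the sources used here. Hence a p value sets a difference against the spread of these libraries alone, and that spread may be technical.

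BMP ligands are secreted dimers that bind type I and type II receptor kinases. The receptors phosphorylate SMAD1, SMAD5 and SMAD9, which join SMAD4, enter the nucleus and switch on target genes within hours. Smad6 and Smad7 are themselves targets whose products feed back on the receptors, and SMAD7 also restrains the TGF-beta and Nodal arm. ID proteins have a helix-loop-helix but no basic region. They bind the E proteins TCF3, TCF4 and TCF12 and keep them off DNA. In mouse ES cells BMP4 with LIF is known to hold back neural differentiation, in part through Id genes, and in the embryo BMP4 from the extraembryonic ectoderm acts on the epiblast to pattern mesoderm and germ cells.

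The genes lie on 7 chromosomes in GRCm38, per the GENCODE vM21 annotation, and all encode proteins. Bmp4 (chromosome 14, 46383520 to 46390669, - strand) shares 89 exonic bases with Gm15217 on the opposite strand. Id4 (chromosome 13, 48261228 to 48266026, + strand) overlaps a pair of noncoding genes on the opposite strand. As the strand setting of the counting was not given in the sources used here, a small part of the reads of Bmp4 and Id4 may come from those genes. Id1 lies at 152736251 to 152737410 on chromosome 2 (+ strand), Id2 at 25093799 to 25097140 on chromosome 12 (- strand), and Msx2 at 53466884 to 53473074 on chromosome 13 (- strand). Id3 lies at 136143497 to 136145755 on chromosome 4, Bmp2 at 133552159 to 133562885 and Bmp7 at 172868012 to 172940321 on chromosome 2, and Smad6 at 63953076 to 64022059 on chromosome 9. None of these 7 overlaps another annotated gene.

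RefSeq promoter windows of 250 bases before the annotated start (GRCm38.p6) were matched for 6 of the genes, Id2, Id3, Id4, Bmp4, Smad6 and Msx2. Those of Bmp4 and Id4 are shown because these genes moved in opposite directions between KO and fl/fl EBd2, and both windows lie outside annotated exons. Smad6 was also called lower in KO EBd2 and its window also lies outside exons, so it could have stood in place of Id4. The windows shown run 5′ to 3′ in the direction of the gene, and capitals mark the GC-rich SMAD1/5 motif GGCGCC. The Smad6 window, not shown, lacks that motif.
Bmp4, chr14:46390670-46390919, - strand: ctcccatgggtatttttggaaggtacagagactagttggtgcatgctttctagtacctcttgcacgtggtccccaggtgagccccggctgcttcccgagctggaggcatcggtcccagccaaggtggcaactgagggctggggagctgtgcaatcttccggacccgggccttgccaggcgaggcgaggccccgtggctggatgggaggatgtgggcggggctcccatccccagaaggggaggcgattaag
Id4, chr13:48260866-48261115, + strand: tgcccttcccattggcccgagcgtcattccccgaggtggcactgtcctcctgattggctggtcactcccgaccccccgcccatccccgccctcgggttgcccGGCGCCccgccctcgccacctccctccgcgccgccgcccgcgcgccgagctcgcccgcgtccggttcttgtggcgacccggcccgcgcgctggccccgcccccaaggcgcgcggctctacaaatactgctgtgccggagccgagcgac
The palindrome GGCGCC starts 148 bases before the Id4 start and 231 bases before the Id2 start, and is not in the other 4 windows. It occurs in 9.59% of the 32851 promoter windows searched. The SMAD binding element GTCTG, searched on both strands, occurs at 2 places in the Id3 window and in none of the other 5, against 42.2% of all windows. A match is a string of letters and not a binding site. By GENCODE exons, the Id3 and Msx2 windows are exonic over all 250 bases and the Id2 window over 161 bases. The RefSeq starts of Id2, Id3 and Msx2 lie inside the GENCODE genes, so their windows hold transcribed sequence. All 6 windows are richer in G and C than the median window of 52.4%, from 61.6% in Msx2 to 75.6% in Id4, and their ratio of observed to expected CpG, 0.45 to 1.05, is above the median of 0.37.

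Total counts were 21545868 to 23343471 in the 4 ES cell libraries and 7858452 to 10055667 in the 4 EBd2 libraries. Levels are given as CPM, the usual depth-scaled counts, with library totals adjusted by TMM factors. Skp1a remained at 85.9% of its fl/fl level in ES cells labelled KO and 72.8% in EBd2, and KO is used here as the name of the label. The tissue label follows genotype and not stage (ES cell for KO, embryoid body for fl/fl), against the titles. Groups here follow the titles, and 4 formative epiblast markers (Fgf5, Otx2, Pou3f1 and Dnmt3b) summed to 1670 to 1790 CPM in fl/fl EBd2, 306 to 321 in EBd2 labelled KO and 171 to 204 in the ES cells. Markers of other cell types differed between groups as well. The sum of 8 fibroblast feeder markers was 503 to 537 CPM in fl/fl ES cells, 557 to 622 in KO ES cells, 46 to 53 in fl/fl EBd2 and 162 to 186 in KO EBd2. Its largest member in ES cells was Col1a1, with means of 296 CPM in fl/fl ES cells, 10.1 in fl/fl EBd2 and 61.4 in KO EBd2. From ES cells to EBd2 in fl/fl, 5 of the 7 tested were called lower and Thy1 higher. Thy1 averaged 17.4 CPM in fl/fl ES cells, 24.2 in fl/fl EBd2, where it was the largest member, and 23.8 in KO EBd2. The sum of 10 primitive and visceral endoderm markers was 76.3 to 92.1 CPM in ES cells, 460 to 503 in fl/fl EBd2 and 1070 to 1080 in KO EBd2, and that of 6 trophectoderm markers was 250 to 278, 265 to 273 and 670 to 684. The largest trophectoderm members in KO EBd2 were the keratins Krt8 (347.3 CPM) and Krt18 (244.3). Of the 6, 5 were called higher in KO EBd2 than in fl/fl EBd2 and 1, Tfap2c, lower. The sum of 7 primitive streak and mesoderm markers was 17.7 to 20.3 CPM in ES cells, 25.4 to 25.6 in fl/fl EBd2 and 166 to 171 in KO EBd2. General pluripotency markers (4 genes) summed to 2100 to 2130 CPM in fl/fl and 1780 to 1810 in KO ES cells, against 2320 to 2340 in fl/fl and 1160 to 1200 in KO EBd2. The sum of 6 naive pluripotency markers was 1700 to 1710, 1450 to 1460, 771 to 822 and 972 to 1030 CPM in the same order. Of these 6, 3 were called higher in KO than in fl/fl EBd2 (Klf4, Nanog and Tbx3) and 1 lower (Esrrb). Each sum is weighted toward its most abundant genes, such as Dnmt3b in the formative sum (1452 CPM in fl/fl EBd2). The part of these cell types in the results below was not tested, and in bulk RNA fewer cells of a type and less RNA per cell cannot be told apart.

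The plot of levels by library shows the 10 genes in all groups. Id1 and Id2 were higher in KO than in fl/fl at both stages, Bmp4 and Msx2 were higher in KO in EBd2, and Id4 and Smad6 were lower there. All 10 genes passed the filter on low counts, Bmp2 only through its EBd2 libraries. In ES cells, 4 of the 10 were called higher and 1 lower in KO (edgeR adjusted p under 0.05), beside 10.9% and 12.8% (23.7% in all) of the 16542 genes tested. The libraries of the genotypes did not overlap for 7 of the 10, beside 64.6% of all genes. In EBd2, 4 were called higher and 3 lower, beside 30.7% and 31.5% of all genes. The 7 calls of 10 in EBd2 are thus close to the 62.2% called among all genes, and the count itself says little about these genes. Libraries did not overlap for 8 of the 10, beside 79.7%, and 5 (Id1, Id2, Id4, Bmp4 and Msx2) were called by a test for changes beyond 1.5-fold, beside 23.6%.

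**Figure D1:**
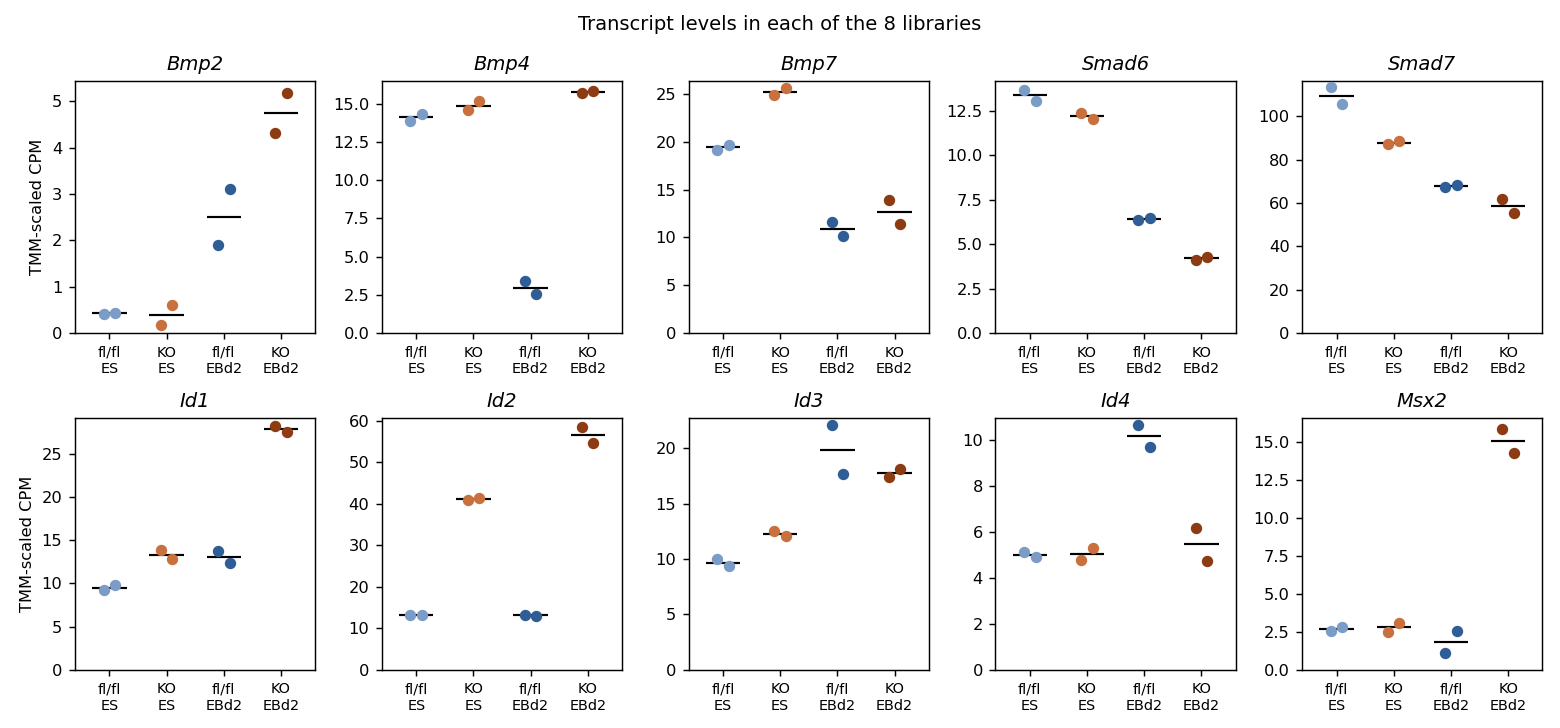
TMM-scaled CPM (vertical axes, each from 0) of the 10 genes in the 8 libraries, by genotype and stage; points are libraries and lines are means of 2. Bmp4 is low in fl/fl EBd2 alone, and Msx2 is high in KO EBd2 alone, with 14.3 and 15.9 CPM.

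Among the ligands, Bmp4 carried the largest genotype difference, and it was seen in EBd2. BMP4 is a ligand known to act on ES cells and on the epiblast. Its level was 13.9 and 14.4 CPM with fl/fl and 14.6 and 15.2 CPM with KO in ES cells, then 3.37 and 2.54 CPM with fl/fl and 15.7 and 15.8 CPM with KO in EBd2. The fl/fl EBd2 libraries stand well below the other 6, and the KO EBd2 libraries lie just above both ES cell groups. In EBd2 Bmp4 was 5.37-fold higher in KO, a log2 difference of 2.43 ± 0.15 (standard error, edgeR adjusted p = 7.89e-08). In ES cells the log2 difference was 0.08 ± 0.08 (adjusted p = 0.547). Of all genes tested in EBd2, 5.79% had a larger log2 fold change.

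Bmp7, a ligand that forms heterodimers with BMP2 and BMP4, was somewhat higher in KO ES cells. It stood at 19.1 and 19.7 CPM with fl/fl and 24.9 and 25.6 CPM with KO in ES cells, then 11.6 and 10.2 CPM with fl/fl and 13.9 and 11.4 CPM with KO in EBd2. The genotypes do not overlap in ES cells and do in EBd2. The log2 difference was 0.38 ± 0.08 for ES cells (edgeR adjusted p = 0.00676) against 0.22 ± 0.13 for EBd2 (adjusted p = 0.169). The call in ES cells was lost without the KO library of lot 12 (0.0536), without the fl/fl library of lot 1 (0.0599) and after thinning all libraries to 7858452 counts (0.132). In EBd2 Bmp7 passed without the KO library of lot 2 (0.37, adjusted p = 0.0432) and with library sizes as the only scaling (0.44, adjusted p = 0.0104).

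Bmp2, which in the early embryo is made by the visceral endoderm, was rare in ES cells. ES cells gave 9 and 9 counts with fl/fl and 4 and 13 with KO, and EBd2 gave 14 and 27 with fl/fl and 44 and 58 with KO. Scaled, the EBd2 levels were 1.89 and 3.12 CPM with fl/fl and 4.31 and 5.19 CPM in KO, without overlap. The log2 difference in EBd2, 0.91 ± 0.39, did not pass (edgeR adjusted p = 0.0614). It passed without either KO ES cell library (0.0295 without lot 1, 0.0327 without lot 12), with no filter on low counts (0.0215), in a fit of the 4 EBd2 libraries (0.0166) and with library sizes only (0.0248). In ES cells the log2 difference was -0.12 ± 0.56 (adjusted p = 0.905), an interval too wide to show a difference of moderate size.

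The inhibitory SMAD transcripts were lower in KO where they were called. Smad7 (chromosome 18, 75367529 to 75395935, + strand) was at 113.4 and 105.5 CPM with fl/fl and 87.3 and 88.5 CPM with KO in ES cells, then 67.3 and 68.5 CPM with fl/fl and 61.9 and 55.2 CPM with KO in EBd2. KO lies below fl/fl at each stage, and both EBd2 groups lie below both ES cell groups. The log2 difference was -0.32 ± 0.05 for ES cells (edgeR adjusted p = 0.000885) against -0.22 ± 0.07 in EBd2 (adjusted p = 0.0162). The EBd2 value turned to 0.01 (adjusted p = 0.915) with library sizes only, a scaling that moves the median of all genes by 0.23 in that comparison, so this small difference rests on the scaling. The call was also lost without the KO EBd2 library of lot 2 (0.165), without the fl/fl EBd2 library of lot 12 (0.0816) and under a stricter filter on low counts (0.0573).

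Smad6, whose product blocks mainly BMP receptors, was called lower in KO in EBd2. It was at 13.7 and 13.0 CPM with fl/fl and 12.4 and 12.1 CPM with KO in ES cells, then 6.34 and 6.46 CPM with fl/fl and 4.12 and 4.29 CPM with KO in EBd2. The 4 groups are ordered without overlap. The log2 difference was -0.61 ± 0.15 in EBd2 (edgeR adjusted p = 0.00736, and 0.0994 with a value of -0.38 with library sizes only) and -0.13 ± 0.08 in ES cells (adjusted p = 0.288). Smad6 and Smad7 are feedback genes of the pathway, and neither was higher in KO at a stage where Id1 and Id2 were.

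The 4 Id genes divided into a pair that was higher in KO at both stages and a pair that was not. Id2 had the steepest difference of the family in ES cells. Its level was 13.2 and 13.2 CPM with fl/fl and 40.9 and 41.4 CPM with KO in ES cells, then 13.2 and 13.0 CPM with fl/fl and 58.5 and 54.6 CPM with KO in EBd2. All 4 fl/fl libraries sit at the same level, and all 4 KO libraries lie far above it. Id2 was 3.12-fold higher in KO ES cells (log2 1.64 ± 0.06, edgeR adjusted p = 5.76e-07) and 4.3-fold higher in KO EBd2 (log2 2.11 ± 0.08, adjusted p = 2.33e-09). It was the only gene of the 10 called beyond 1.5-fold in ES cells (edgeR glmTreat, adjusted p = 9.26e-06), which called 0.103% of all genes.

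Id1 showed a smaller difference in ES cells and a larger one in EBd2. It stood at 9.25 and 9.77 CPM with fl/fl and 13.8 and 12.8 CPM with KO in ES cells, then 13.8 and 12.4 CPM with fl/fl and 28.2 and 27.5 CPM with KO in EBd2. KO ES cells and fl/fl EBd2 share a level between fl/fl ES cells below and KO EBd2 above. The log2 difference was 0.49 ± 0.09 for ES cells (edgeR adjusted p = 0.0025) against 1.10 ± 0.10 in EBd2 (adjusted p = 1.85e-06). The ES cell call was lost after thinning to the same depth in a single random draw, where the value was 0.21 ± 0.16 (adjusted p = 0.448).

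Id3 was at 9.97 and 9.38 CPM with fl/fl and 12.5 and 12.1 CPM with KO in ES cells, then 22.1 and 17.7 CPM with fl/fl and 17.4 and 18.2 CPM with KO in EBd2. In EBd2 the KO libraries overlap the lower fl/fl library. The log2 difference in ES cells was 0.34 ± 0.10 (edgeR adjusted p = 0.0327), a call lost without any 1 of the 4 ES cell libraries (0.18 without fl/fl lot 2, 0.147 without KO lot 1, 0.097 without fl/fl lot 1, 0.0947 without KO lot 12), by DESeq2 (0.104) and after thinning (0.292). In EBd2 it was -0.15 ± 0.11 (adjusted p = 0.269), and it passed at -0.31 without the fl/fl library of lot 12 (0.0418).

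Id4, best known from the nervous system, was the Id gene that was lower in KO. Its level was 5.12 and 4.89 CPM with fl/fl and 4.77 and 5.28 CPM with KO in ES cells, then 10.7 and 9.69 CPM with fl/fl and 6.17 and 4.74 CPM with KO in EBd2. Only the fl/fl EBd2 libraries stand apart. In EBd2 it was 1.87-fold lower in KO (log2 -0.90 ± 0.16, edgeR adjusted p = 0.000573), and in ES cells the log2 difference was 0.00 ± 0.14 (adjusted p = 0.988).

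Msx2, a homeobox target of BMP in limb and skull, was high in a lone group. It was at 2.56 and 2.79 CPM with fl/fl and 2.5 and 3.11 CPM with KO in ES cells, then 1.08 and 2.54 CPM with fl/fl and 15.9 and 14.3 CPM with KO in EBd2. The fl/fl EBd2 values rest on 8 and 22 counts. In EBd2 Msx2 was 8.08-fold higher in KO (log2 3.01 ± 0.25, edgeR adjusted p = 1.09e-06), and in ES cells the log2 difference was 0.07 ± 0.22 (adjusted p = 0.86).

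**Figure D2:**
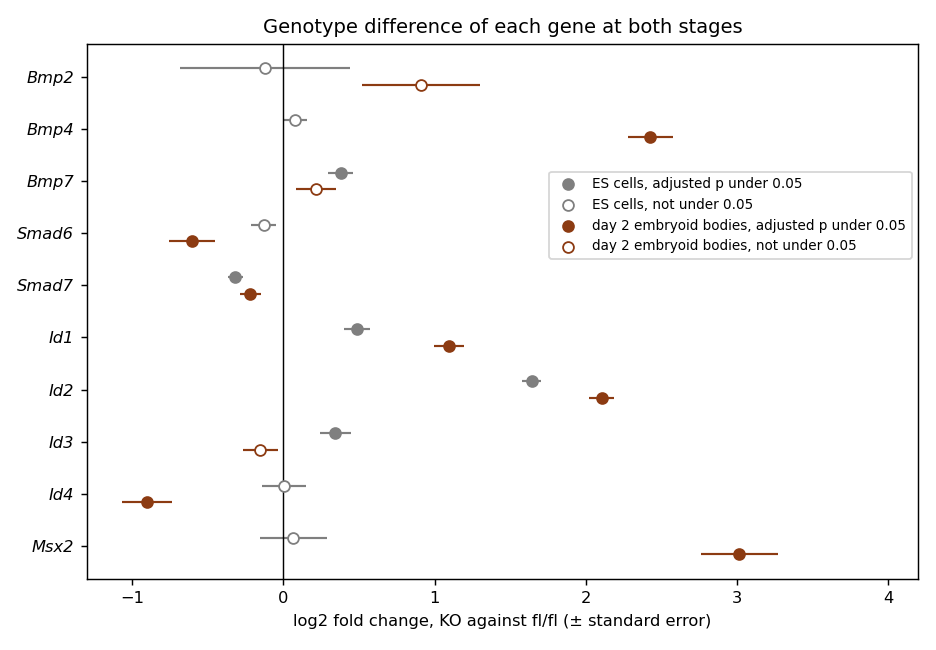
Log2 fold change of KO against fl/fl (horizontal axis, bars are standard errors) for the 10 genes in ES cells (grey) and EBd2 (brown); filled points have an edgeR adjusted p under 0.05. Msx2 and Bmp4 lie near 0 in ES cells and at 3.01 and 2.43 in EBd2, Id2 is high at both stages, and the EBd2 value of Smad7, -0.22, becomes 0.01 with library sizes only.

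Differentiation of fl/fl cells to day 2 gives the change in the reference genotype. Bmp4 fell 4.81-fold (log2 -2.27 ± 0.14, edgeR adjusted p = 1.25e-07), Smad6 2.09-fold (-1.06 ± 0.11), Bmp7 1.79-fold (-0.84 ± 0.11) and Smad7 1.61-fold (-0.69 ± 0.06). Id3 (1.03 ± 0.11), Id4 (1.02 ± 0.15) and Id1 (0.45 ± 0.11) rose, while Id2 kept a log2 difference of -0.01 ± 0.09 (adjusted p = 0.973). Bmp2 rose (2.56 ± 0.48, adjusted p = 0.00078), but it entered the test through its EBd2 libraries. Msx2, at -0.52 ± 0.31, did not pass (adjusted p = 0.171, and 0.0175 with a value of -1.3 without the fl/fl EBd2 library of lot 12). In all 4 rose and 4 fell, beside 28.9% and 30.1% (59% together) of all genes. The stages did not overlap for 9 of the 10, beside 78.9%, and 6 were called beyond 1.5-fold, beside 18.4%. Bmp2 is counted in the rises, the 9 and the 6, though it passed the filter only through EBd2. The Id1 call was lost after thinning (0.19, adjusted p = 0.374).

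In cells labelled KO, 6 genes were called in the same direction as in fl/fl (Id1, Id3 and Bmp2 up, Bmp7, Smad6 and Smad7 down), and the others were not. Bmp4 changed by 0.08 ± 0.09 (edgeR adjusted p = 0.459, and 0.0429 with a value of 0.23 with library sizes only), and Id4 by 0.11 ± 0.16 (adjusted p = 0.563). Msx2 rose 5.38-fold (2.43 ± 0.19, adjusted p = 6.63e-07), Id1 2.09-fold (1.06 ± 0.08, adjusted p = 5.69e-07) and Id2 1.37-fold (0.46 ± 0.06, adjusted p = 3.13e-05). Id3 rose by 0.53 ± 0.11 (adjusted p = 0.00089, and 0.0876 after thinning), and Bmp2, tested under the same limit, by 3.59 ± 0.44. Bmp7 (0.499 of its ES cell level), Smad6 (-1.54 ± 0.12) and Smad7 (-0.59 ± 0.06) fell. The 5 that rose and 3 that fell stand beside 31.7% and 33.1% (64.8% together) of all genes. The stages did not overlap for 9 of the 10, beside 83%, and 5 were called beyond 1.5-fold, beside 22.6%. Here too Bmp2 is counted in the rises, the 9 and the 5 called beyond 1.5-fold.

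**Figure D3:**
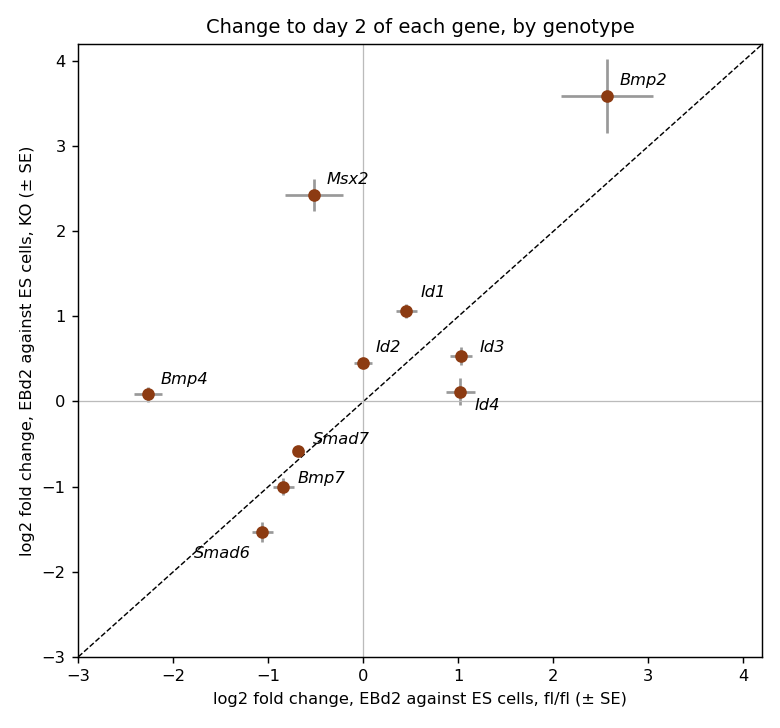
Log2 fold change from ES cells to EBd2 in fl/fl (horizontal axis) and in KO (vertical axis) for the 10 genes, with standard errors; the dashed line marks equal change. Bmp4 and Msx2 lie farthest above the line, at -2.27 and -0.52 in fl/fl against 0.08 and 2.43 in KO, Id3 and Id4 lie below it, and Smad7 and Bmp7 lie near it.

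The interaction of genotype and stage tests whether the KO difference itself changed between ES cells and EBd2. It was called for 6 of the 10 genes, 4 in the positive and 2 in the negative direction, beside 22.4% and 25.7% (48% together) of all genes. Msx2 (2.95 ± 0.35, edgeR adjusted p = 3.89e-05) and Bmp4 (2.35 ± 0.17, adjusted p = 1.04e-06) had the largest values, and both were called beyond 1.5-fold, as were 14.1% of all genes. Id1 (0.61 ± 0.13, adjusted p = 0.00279) and Id2 (0.46 ± 0.11, adjusted p = 0.00444, and 0.172 after thinning) had a larger KO difference in EBd2. For Id4 it was more negative there (-0.91 ± 0.22, adjusted p = 0.00515). In the edgeR fit with lots as a block, the interactions of Id1 (0.47, adjusted p = 0.0971) and Id4 (-0.70, adjusted p = 0.129) did not pass.

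For Id3 the interaction was -0.50 ± 0.15 (edgeR adjusted p = 0.0198). It did not pass without fl/fl EBd2 of lot 1 (0.0971), fl/fl ES cells of lot 2 (0.0691), or lot 1 of KO, whether from ES cells (0.0607) or EBd2 (0.0523), with library sizes only (0.0901), by DESeq2 (0.0744) and after thinning (0.193). Smad6 (-0.48 ± 0.17, adjusted p = 0.0682), Smad7 (0.10 ± 0.08, 0.355), Bmp7 (-0.16 ± 0.16, 0.416) and Bmp2 (1.03 ± 0.69, 0.248) did not pass. Bmp2 passed at 2.11 without KO ES cells of lot 12 (0.0438), where it had 13 counts, and Smad7 at 0.26 with library sizes only (0.0249).

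Levels were compared between genes after division by exon length, the union of all annotated exons of a gene. That length can exceed the length of the transcript expressed by an unknown amount, so orders and shares between genes are approximate. On this scale of CPM per kb of exon, Smad7 was the most abundant of the 10 in fl/fl ES cells, at 24.2 ± 1.24 (SD, n = 2), followed by Id1 at 8.2 ± 0.32 and Bmp4 at 6.28 ± 0.15. Id2 (5.4 ± 0.0084) and Id3 (5.4 ± 0.23) did not differ beyond their spread. Bmp2 was lowest, at 0.119 ± 0.0070. In KO EBd2 the order was led by Id1 (24.0 ± 0.47) and Id2 (23.2 ± 1.14), which did not differ beyond their spread. Smad7 (13.0 ± 1.05) came next there, while Smad6 was lowest, at 1.31 ± 0.039, next to Bmp2 at 1.34 ± 0.17.

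The 4 Id genes together summed to 20.3 CPM per kb in both fl/fl ES cell libraries, 36.1 and 36.9 in KO ES cells, 28.4 to 32.4 in fl/fl EBd2, and 57.4 to 59.7 in KO EBd2. Id2 made up 26.6% of that sum in fl/fl ES cells and 45.4% to 47% in KO ES cells, and 16.7% to 18.9% in fl/fl EBd2 against 39% to 40.2% in KO EBd2. The share of Id3 was 34.7% to 38.1% in fl/fl EBd2 and 16.3% to 17.7% in KO EBd2. Bmp2, Bmp4 and Bmp7 summed to 11 to 11.4 CPM per kb in fl/fl ES cells, 12.7 to 13.3 in KO ES cells, 4.53 to 4.92 in fl/fl EBd2 and 11.3 to 11.6 in KO EBd2. Bmp4 took 55.9% to 56% of the ligand sum in fl/fl ES cells, 24.9% to 30.5% in fl/fl EBd2 and 59.9% to 62.2% in KO EBd2, where it led as it did in ES cells. Bmp7 led in fl/fl EBd2, with 55.7% to 58.7%.

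**Figure D4:**
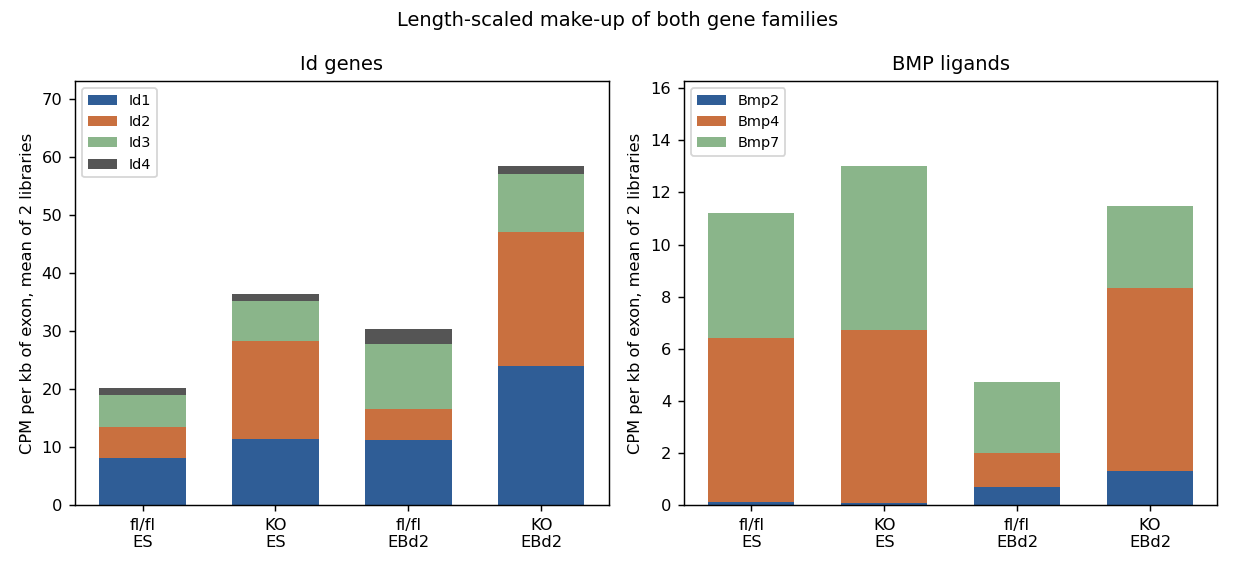
CPM per kb of exon (vertical axes, mean of 2 libraries, stacked from 0) of the 4 Id genes and of Bmp2, Bmp4 and Bmp7 in the 4 groups. Id2 widens in both KO groups, and the Bmp4 segment is thin in fl/fl EBd2 alone, at 1.32 against 7.01 in KO EBd2.

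The rest of the pathway was read from 8 lists that hold 82 other genes, of which 70 passed the filter. In ES cells 16 of the 70 were called higher and 7 lower in KO, beside 10.9% and 12.8% of all genes, with a median log2 difference of 0.12, beside a median of 0.00 over all genes. In EBd2 31 were higher and 20 lower, beside 30.7% and 31.5% of all genes, with a median of 0.28, again beside 0.00. The counts of each list below are to be read against these shares of all genes. Of the 23 calls in ES cells 8, and of the 51 in EBd2 36, held in every alternative of scaling, filter, depth, tool and left-out library, other than the test beyond 1.5-fold.

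Among 5 other ligands tested, Bmp6 (2.00 ± 0.21, edgeR adjusted p = 6.38e-06), Bmp8b (1.77 ± 0.20) and Bmp8a (1.84 ± 0.41) were higher in KO EBd2, and none was lower. With library sizes only, 4 of the 5 were higher. Gdf5, among these 5, had 9 and 9 counts in KO EBd2 against 0 and 2 in fl/fl EBd2. It passed the filter on low counts only through KO EBd2, so the filter favoured a higher value there. Bmp8b was also higher in KO ES cells (1.02 ± 0.15, adjusted p = 0.000781). Of 10 receptors and co-receptors, 4 were higher and 4 lower in KO EBd2 (5 and 3 with library sizes only), beside 30.7% and 31.5% of all genes. The type I receptor Acvrl1 rose from 1.03 CPM with fl/fl to 8.94 CPM in KO EBd2 (3.08 ± 0.29, adjusted p = 2.49e-06), and the type II receptor Bmpr2 rose by 0.48 ± 0.06. The type II receptor Acvr2b, shared with activin and Nodal, went from 60 to 20.1 CPM (-1.58 ± 0.07, adjusted p = 8.42e-09). Of the signal-carrying SMADs, Smad5 was lower in KO EBd2 (-0.48 ± 0.07, adjusted p = 8.32e-05) and the other 3 were not called. With library sizes only, 2 of these 4 SMAD genes were called higher and 1 lower, so calls in this list rest on the scaling.

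Secreted modulators had 5 genes higher and 0 lower in KO ES cells, and 6 higher and 3 lower in KO EBd2, of 14 tested. The shares of all genes are 10.9% and 12.8% in ES cells and 30.7% and 31.5% in EBd2. With library sizes only, the EBd2 count was 8 higher and 2 lower. Of the 3 lower calls, that of Chrd was lost without the fl/fl library of lot 12 (0.138) or the KO library of lot 1 (0.0597), and that of Chrdl1 without the KO library of lot 2 (0.245) among others. Grem1, a BMP antagonist, averaged 33.2 CPM with fl/fl and 44.1 CPM with KO in ES cells, then 6.63 CPM with fl/fl and 68.3 CPM with KO in EBd2 (EBd2 difference 3.36 ± 0.09, edgeR adjusted p = 1.56e-10). Follistatin, Fst, which binds activin and some BMPs, was higher in KO EBd2 by 2.17 ± 0.15, and Bmp1, a protease that cleaves the antagonist chordin, by 2.98 ± 0.10. Grem1 and Bmp1 share with Bmp4 the low level in fl/fl EBd2, the group in which the fibroblast marker sum is lowest. In KO EBd2 that sum, 162 to 186 CPM, was also below both ES cell groups (503 to 537 and 557 to 622). The means of Grem1 (68.3), Bmp1 (70.9) and Bmp4 (15.75) in KO EBd2 were above those of both ES cell groups. The part of fibroblasts in these levels was not tested.

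Of 7 membrane and intracellular inhibitors, 1 was higher and 3 lower in KO EBd2, beside 30.7% and 31.5% of all genes, and 3 were higher and 3 lower with library sizes only. Skil, a SMAD corepressor, was at 349.7 CPM with fl/fl and 133.7 CPM with KO in EBd2 (-1.39 ± 0.05, edgeR adjusted p = 1.97e-09), and its relative Ski was lower by 0.68 on the log2 scale (-0.68 ± 0.04). Pmepa1 was higher (1.55 ± 0.08).

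Other BMP-responsive genes had 7 higher and 2 lower of 11 in KO EBd2, against 0 and 1 in ES cells, beside shares of all genes of 30.7% and 31.5% in EBd2 and 10.9% and 12.8% in ES cells. Without the KO EBd2 library of lot 2, 3 of the 7 higher calls were lost, Gata3 (0.0544), Msx1 (0.19) and Tfap2a (0.05), and that of Atoh8 was lost without the KO EBd2 library of lot 1 (0.159) or the fl/fl library of lot 12 (0.207). Cdx2, Gata3 and Tfap2c also stand in the trophectoderm list and Hand1 in the mesoderm list above, whose part was not tested. Cdx2, a caudal and trophectoderm factor, had 206 and 235 counts in KO EBd2 against 3 and 5 in fl/fl EBd2 (5.35 ± 0.26). It passed the filter on low counts only through KO EBd2, so its call, counted among the 7, was favoured by the filter. The haematopoietic and trophoblast factor Gata2 was higher by 2.03 ± 0.16. Prdm1 (-1.45 ± 0.09) and Tfap2c (-0.79 ± 0.05), which take part in germ cell specification, were lower.

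The E proteins that ID proteins bind differed little between genotypes in EBd2. From ES cells to EBd2 they rose in fl/fl, Tcf12 by 1.02 ± 0.06, Tcf4 by 0.41 ± 0.06 and Tcf3 by 0.24 ± 0.04. In KO only Tcf12 was called (0.66 ± 0.06). The interaction was called negative for Tcf12 (-0.36 ± 0.08), Tcf4 (-0.45 ± 0.09) and Tcf3 (-0.20 ± 0.05), but for only 1 of them with library sizes only. Tcf12 was also higher in KO ES cells (0.20 ± 0.06). Tcf3 (-0.15 ± 0.04, edgeR adjusted p = 0.00674), Tcf12 (-0.16 ± 0.06, 0.0429) and Tcf4 (-0.33 ± 0.07, 0.00132) were lower in KO EBd2, but with library sizes only none was called and the values of Tcf3 and Tcf12 turned to 0.08 and 0.07. The call of Tcf3 was also lost without the KO EBd2 library of lot 2 (0.084), and that of Tcf12 without the same library (0.453) among others. In the SMAD2 and SMAD3 arm, 10 of 16 genes were higher and 4 lower in KO EBd2 (12 and 3 with library sizes only), beside 30.7% and 31.5% of all genes. Nodal (1.29 ± 0.05) and Tgfb1 (2.44 ± 0.10) were higher and Lefty1, a Nodal antagonist, was lower (-1.61 ± 0.06, adjusted p = 1.72e-09).

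**Figure D5:**
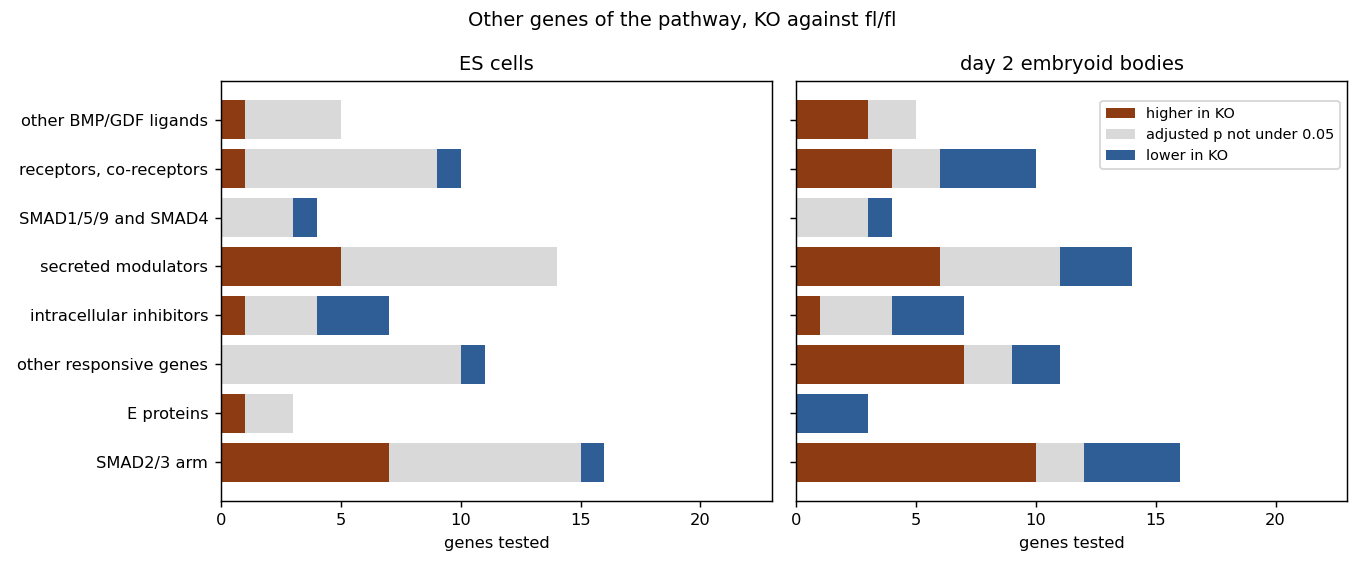
Number of genes tested (horizontal axis) in 8 other lists of the pathway, split into those higher in KO, those with an edgeR adjusted p not under 0.05, and those lower in KO, in ES cells and EBd2. Cdx2, among the other BMP-responsive genes, and Gdf5, among the other ligands, passed the filter on low counts only through KO EBd2. Chrdl1, among the secreted modulators, passed it only through fl/fl EBd2. Other BMP-responsive genes go from 0 higher and 1 lower in ES cells to 7 higher and 2 lower in EBd2, of which 3 higher calls are lost without the KO library of lot 2, while calls among all genes go from 23.7% to 62.2%; the 3 E protein calls in EBd2 are lost with library sizes only.

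Genes with the most similar pattern were sought among 11449 genes with a mean of at least 5 CPM, by Pearson correlation of log2 CPM over the 8 libraries. The values describe 4 groups in pairs of libraries that share stage and depth. Nearest to Bmp4 were Tagln2 (r = 0.999), Anxa1 (0.998) and Rusc2 (0.998). Anxa1, an annexin, stood at 35.8, 45.1, 2.91 and 45.7 CPM in fl/fl ES cells, KO ES cells, fl/fl EBd2 and KO EBd2. Nearest to Id1 were Wdr1 (0.996), Bcl6b (0.995) and Plxdc2 (0.993), and Bcl6b went from 8.98 CPM in fl/fl ES cells to 32.4 CPM in KO EBd2. Nearest to Smad7 were Pgm1, Idh2 and Ppme1 (0.997, 0.995 and 0.992), and nearest to Msx2 were Chpf, Rfwd3 and Dnajb1 (0.994 each). A high r does not mean a change of equal size. Between fl/fl and KO EBd2, Chpf went from 31.8 to 50.6 CPM, Rfwd3 from 220 to 284 and Dnajb1 from 46.3 to 78.3. Msx2 was 8.08-fold higher in the same comparison. Among the 10 genes themselves, Smad6 and Smad7 correlated at 0.952 and Bmp4 and Id4 at -0.945 over the same 8 libraries, while Id1 correlated with Bmp4 at 0.228.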

How the data were processed

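The deposited table holds raw read counts per gene symbol, whole numbers with no normalization by the authors. Trim Galore 0.6.7, GRCm38 and mm10 are listed, per the submitters' processing notes. The aligner, counter and strand setting were not given in the sources used here. A match in GENCODE vM21 was found for 95.8% of 36255 symbols.

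Tests were run with edgeR 4.0.16 in R 4.3.3. Filtering by filterByExpr left 16542 genes, scaled by TMM. The quasi-likelihood test (two-sided) used 4 group means over all 8 libraries, with Benjamini-Hochberg adjustment over all 16542 genes and a threshold of 0.05. Standard errors were taken as |log2 fold change| over the root of F. Variation was low (common BCV 3.4%, 4 residual degrees of freedom). Same-group libraries differed by more than sampling noise. The procedure was tested on simulated data. Length scaling used the union of GENCODE exons. Promoter windows are those outside chromosome 18.

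The 10 genes are named whatever their p, and from each of 8 lists up to 4 called genes with the smallest p could be named in each comparison. Other list genes named for a lost call, for the filter on low counts or for standing in another list were chosen after their values were seen. The 3 genes most like each were sought for Id1, Bmp4, Smad7 and Msx2. The genes and lists were chosen with earlier results of these data known. Alternatives were other scalings (RLE, library size only), filters, DESeq2 1.42.0, glmTreat, thinning, a lot block, fits of 4 libraries and leaving out each library. Thinning was a single random draw, so values after thinning carry the noise of that draw.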

Additional observations from a re-analysis of the deposited data

Results flagged for a closer look

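The KO difference changed between ES cells and EBd2 for 6 of the 10 genes, by the interaction term of the edgeR fit, which was called for 48% of all genes. On the log2 scale the change was 2.95 for Msx2, 2.35 for Bmp4, 0.61 for Id1 and 0.46 for Id2, and -0.50 for Id3 and -0.91 for Id4. The Id3 call was lost in 7 alternatives given with its result, that of Id2 after thinning (adjusted p = 0.172), and those of Id1 (0.0971) and Id4 (0.129) in the fit with lots as a block. Each group holds 2 libraries, too few to look for a single library far from the rest of its group.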

How the results depend on the processing

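Scaling by RLE factors changed no call among the 10 genes in the 5 comparisons. Of 50 results (10 genes by 5 comparisons), 32 stayed on their side of the threshold with their direction in every alternative other than the test beyond 1.5-fold, and 28 with it included. With library sizes only, the EBd2 genotype difference of Smad7 turned from -0.22 to 0.01, and calls over all genes became 2819 higher and 1089 lower in ES cells against 1806 and 2120 by TMM, 7075 and 3345 in EBd2 against 5072 and 5217, 6665 and 4106 for the change to EBd2 in KO against 5248 and 5473, and 5008 and 2992 for the interaction against 3704 and 4244. The median of all genes moved to 0.075, 0.23, 0.14 and 0.15 in the same order.

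The 3926 genes called between genotypes in ES cells became 1474 after thinning and 2236 with lots as a replicate block. Without 1 library they ranged from 1934 to 4160, the fall coming from any ES cell library left out: 1934 (fl/fl, lot 2), 2009 (fl/fl, lot 1), 2217 (KO, lot 1) and 2225 (KO, lot 12). The test beyond 1.5-fold called 17 genes in ES cells, 3910 in EBd2, 3043 for the change to EBd2 in fl/fl, 3733 for that in KO and 2331 for the interaction. Ranges without 1 library were 9051 to 10107 in EBd2, 8307 to 9779 for fl/fl, 9349 to 10877 for KO and 6963 to 7285 for the interaction. The groups compared share lot 1 alone or no number of known meaning, and deviations of same-lot libraries correlated at -0.022 to 0.018, so lots pair nothing here. With the block, 5 calls of the 10 genes were lost, those of Id3 (adjusted p = 0.057) and Bmp7 (0.0723) in ES cells, Smad7 in EBd2 (0.0793), and the interactions of Id1 (0.47, 0.0971) and Id4 (-0.70, 0.129), and that of Bmp2 in EBd2 was gained (0.0333). Counts limit Bmp2, with 4 to 13 per ES cell library, and Msx2 in fl/fl EBd2, with 8 and 22.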
